A study of Mus musculus with 6 samples.

Results

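The genes described here are the cytosolic sulfotransferases of mouse liver and the enzymes that make their shared cofactor. They comprise Sult1a1, Sult1b1, Sult1c2, Sult1d1, Sult1e1, Sult2a8, Sult3a1, Sult5a1, Papss1 and Papss2, in all 10 of the 22180 genes that have a probe set naming a single gene. The genes were chosen by name with earlier results of these arrays known. For each gene the probe set was to be selected on its mean log2 signal over the 6 arrays, and since each gene had 1 probe set there was nothing to select. The adjusted p-values below therefore describe these arrays and are not independent evidence about the genes.

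The livers were those of 12-week-old males (strain C57Bl/6J) with the FAH5981SB allele, a G>A point mutation of Fah after which the fumarylacetoacetate hydrolase protein is truncated and degraded. In the withdrawal group (3 arrays) NTBC was stopped at 11 weeks of age and the livers were taken 7 days later. The continuous group (3 arrays) stayed on NTBC, dosed at 8 mg/l through water that also held 3% dextrose. NTBC (nitisinone) blocks tyrosine breakdown upstream of the missing enzyme. All mice shared the mutation and a chow low in tyrosine and phenylalanine, and mice without the mutation were not analysed here. The labels do not say whether the dextrose continued after NTBC was stopped. Replicates are called biological with no animal named. A p-value here thus weighs the difference between the groups against the spread among these arrays, which may in part be technical.

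Cytosolic sulfotransferases transfer a sulfonate group to the hydroxyl or amine of a small molecule. The product is more water soluble and is often inactive as a hormone or easier to excrete. Family 1 acts mainly on phenols, thyroid hormone, catecholamines and estrogens, and family 2 on steroids and bile acids. The sulfonate donor is PAPS (phosphoadenosine phosphosulfate), which the bifunctional PAPS synthases make from ATP and inorganic sulfate. In liver these enzymes are a major part of phase II metabolism beside glucuronidation, and several of them differ between male and female mice.

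Values are log2 signals from tables of 34472 probe sets an array. None of the 7 measured hepatocyte markers lay under the lower quartile of all probe sets on every array. Their summed linear signal was 58309 to 63623 on withdrawal arrays and 66503 to 71021 on continuous arrays. Of these 1 fell, Cps1 (log2 difference -1.08), and none rose. The others differed by -0.77 (Serpina1a), -0.37 (Fgb), -0.23 (Apoa1), -0.07 (Apob), -0.05 (Alb) and 0.10 (Ttr), so the markers did not move alike. Sinusoidal endothelial markers (6 measured), of which Lyve1 and Clec4g rose, summed to 1878 to 1937 on withdrawal arrays and 1211 to 1426 on continuous arrays. Their log2 differences were 1.07 (Lyve1), 0.81 (Clec4g), 0.43 (Oit3), 0.36 (Stab2), 0.17 (Fcgr2b) and 0.02 (Pecam1). For Kupffer (6), stellate (6), cholangiocyte (5) and leukocyte (5) markers the ranges of the groups overlapped. Epcam of the cholangiocyte list and S100a8 of the leukocyte list lay under the lower quartile of all probe sets on every array. Erythroid cells were represented by 1 measured marker, Slc4a1. Its linear signal was 55 to 64 on withdrawal arrays and 50 to 54 on continuous arrays, and it was not called (log2 difference 0.23, limma adjusted p = 0.368). Fah is mutated in both groups and gave 7.68, 7.88 and 7.43 on withdrawal arrays, against 8.30, 7.63 and 7.52 on continuous arrays, so it does not check the labels.

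After NTBC withdrawal 3 of the 10 genes fell and 7 did not pass the test. Sult2a8 fell 14.2-fold, Sult5a1 2.43-fold and Sult1a1 1.44-fold. No member rose by limma's adjusted p of 0.05, nor at an unadjusted p of 0.05. Among all probe sets 3.20% were called lower and 6.21% higher. The median log2 difference of the 10 genes was -0.13, against -0.08 over all probe sets. The 3 withdrawal arrays lay wholly below the continuous arrays for 3 members (13.7% of all probe sets) and wholly above them for 2 (13.9% of all probe sets). Nothing is read from these shares, because the genes were listed with the contrast in view.

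**Figure D1:**
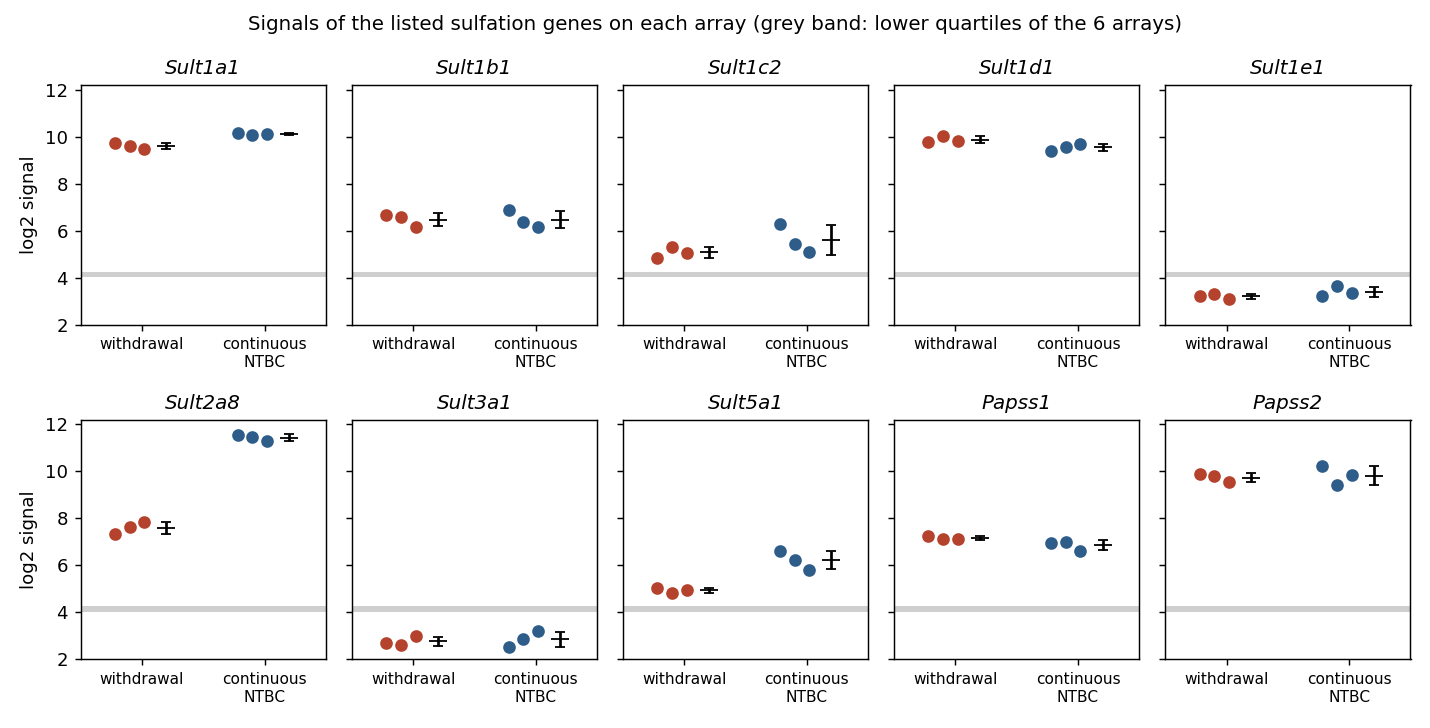
Log2 signal (vertical axis) of each gene on the 3 withdrawal arrays (red, left) and the 3 continuous NTBC arrays (blue, right), with the mean and SD of each group in black and the lower quartiles of the 6 arrays, 4.03 to 4.26, as a grey band. Sult2a8 shows the widest gap between the groups among the 10 genes, and Sult1e1 and Sult3a1 lie below the band on every array.

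Sult2a8 encodes a mouse sulfotransferase known for sulfonating bile acids. Its log2 signal was 7.34, 7.62 and 7.86 on withdrawal arrays, against 11.55, 11.47 and 11.29 on continuous arrays. The groups were 3.43 apart at their nearest arrays, while each group spanned 0.52 or less. The log2 difference was -3.83 (SE 0.17, 95% interval -4.21 to -3.45, limma adjusted p = 2.1e-06). Only 9 of the 22180 genes had a larger fall in log2 signal. Transcripts of related family 2a genes can bind shared probes, and their share in this signal was not tested. The lowest withdrawal signal was still above the lower quartile of its array (4.08), so raising dim signals to that quartile left the fold at 14.2. Hepatocyte markers summed lower on the withdrawal arrays by far less than this, as given above, and their part in the result was not tested. In whole liver RNA, fewer hepatocytes and less RNA per hepatocyte cannot be told apart.

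Sult5a1, a family member whose substrates are poorly known, gave 5.05, 4.84 and 4.96 on withdrawal arrays and 6.62, 6.25 and 5.82 on continuous arrays. The groups were 0.77 apart, and the continuous arrays spanned 0.80, slightly more than that gap. The log2 difference was -1.28 (SE 0.20, 95% interval -1.73 to -0.83, limma adjusted p = 0.00323). The direction and the call held under each of the 16 alternative settings, in which the log2 difference ran from -1.48 to -1.08. It stayed at -1.28 in several of them, such as the replicate block, so these could alter the call alone. A larger fall was found for 179 genes.

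Sult1a1 encodes the main phenol sulfotransferase of liver. Its signal was 9.73, 9.59 and 9.47 on withdrawal arrays, against 10.17, 10.07 and 10.12 on continuous arrays. The arrays did not overlap and the gap between the groups was 0.34. The log2 difference was -0.52 (SE 0.14, 95% interval -0.84 to -0.20, limma adjusted p = 0.048), close to the threshold. The call was lost after median centring (-0.42, adjusted p = 0.172) and without any 1 array, with adjusted p from 0.0726 without continuous replicate 1 to 0.144 without withdrawal replicate 2. It was lost also without withdrawal replicates 1 (0.114) and 3 (0.123) and continuous replicates 2 (0.0923) and 3 (0.106).

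The sequences before the start sites of these 3 genes are shown because their signals fell, with that of Sult1b1, which did not pass the test, for comparison. RefSeq (GRCm38.p6) gave 14 start sites for the 10 genes, and the 250 bases before each were searched. Sult2a8 has an outer start with its window at chr7:14446588-14446837 and an inner one at chr7:14438552-14438801. The Sult5a1 window is chr8:123158281-123158530, that of Sult1a1 is chr7:126676419-126676668 and that of the outer Sult1b1 start is chr5:87538196-87538445. All 5 are on the minus strand and are written 5′ to 3′ in the direction of transcription, with capitals for AGGTCA or its reverse complement, the half-site of many nuclear receptors.
Sult2a8, outer start site: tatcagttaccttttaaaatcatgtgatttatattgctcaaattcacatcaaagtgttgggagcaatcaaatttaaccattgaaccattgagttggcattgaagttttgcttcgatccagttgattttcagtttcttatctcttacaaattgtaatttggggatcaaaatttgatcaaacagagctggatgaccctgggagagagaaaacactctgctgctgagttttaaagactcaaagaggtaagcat
Sult2a8, inner start site: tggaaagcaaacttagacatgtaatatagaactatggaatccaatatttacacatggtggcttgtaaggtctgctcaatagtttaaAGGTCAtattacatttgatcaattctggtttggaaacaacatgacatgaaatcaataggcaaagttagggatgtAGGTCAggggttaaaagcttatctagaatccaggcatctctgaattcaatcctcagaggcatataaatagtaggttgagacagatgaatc
Sult5a1: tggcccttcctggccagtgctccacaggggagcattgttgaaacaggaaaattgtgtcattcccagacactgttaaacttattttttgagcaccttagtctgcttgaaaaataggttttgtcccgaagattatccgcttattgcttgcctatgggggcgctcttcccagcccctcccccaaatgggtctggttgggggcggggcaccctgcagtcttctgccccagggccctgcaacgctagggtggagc
Sult1a1: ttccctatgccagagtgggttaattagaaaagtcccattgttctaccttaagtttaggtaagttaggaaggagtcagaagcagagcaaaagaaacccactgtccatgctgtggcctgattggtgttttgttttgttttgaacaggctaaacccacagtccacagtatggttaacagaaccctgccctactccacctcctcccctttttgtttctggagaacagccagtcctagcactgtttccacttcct
Sult1b1, outer start site: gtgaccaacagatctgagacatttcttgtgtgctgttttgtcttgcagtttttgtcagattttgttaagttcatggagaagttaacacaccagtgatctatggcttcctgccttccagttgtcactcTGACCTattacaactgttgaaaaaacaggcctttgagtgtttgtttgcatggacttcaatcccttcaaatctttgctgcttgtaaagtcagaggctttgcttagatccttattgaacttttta

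The inner Sult2a8 window held 2 copies of AGGTCA on the forward strand, from 164 to 159 and from 90 to 85 bases before the start. The outer Sult2a8 window and the windows of Sult5a1 and Sult1a1 held none. The outer Sult1b1 window held 1 on the reverse strand, 123 to 118 bases before the start, and the inner Sult1b1 window, which is not shown, held none. In all 4 of the 14 windows held it, against 14.0% of 32851 such windows in the genome, and the other 2 were those of Sult1e1 and of the inner Papss2 start. The antioxidant response element core TGACNNNGC was in 0 of the 14 windows (10.2% of all windows), and TTCNNNGAA, the core bound by STAT5, was in 1, that of Sult3a1 (7.02% of all windows). Both strands were searched, and the motifs do not share letters in any of these windows. A match is a match of letters and not evidence of binding.

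Among the phenol and catecholamine sulfotransferases, Sult1d1, Sult1b1 and Sult1e1 lie next to each other on chromosome 5, and none of the 3 passed the test. Sult1d1, which in mouse acts on dopamine and related amines, had 9.77, 10.04 and 9.81 on withdrawal arrays, against 9.39, 9.55 and 9.70 on continuous arrays. Its groups did not overlap, but they were only 0.07 apart (log2 difference 0.33, SE 0.16, 95% interval -0.02 to 0.67, limma adjusted p = 0.238). Sult1b1, which sulfonates thyroid hormone and phenols, gave 6.66, 6.58 and 6.15 on withdrawal arrays and 6.86, 6.36 and 6.16 on continuous arrays. Its interval of -0.47 to 0.48 around a log2 difference of 0.00 leaves room for a change of up to about 0.5 in either direction.

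Sult1e1, the estrogen sulfotransferase, gave 3.24, 3.31 and 3.10 on withdrawal arrays, against 3.22, 3.65 and 3.33 on continuous arrays. These signals were below the lower quartile of all probe sets on each array, and the table carries no detection call. The log2 difference was -0.18 (SE 0.16, limma adjusted p = 0.534). A change from such a low signal may be compressed. Sult3a1, an amine sulfotransferase that in mouse liver is higher in females, was likewise under the lower quartile on every array, with 2.70, 2.63 and 3.00 on withdrawal arrays and 2.52, 2.85 and 3.19 on continuous arrays. Its groups overlapped (log2 difference -0.08, SE 0.19, adjusted p = 0.845). No level of either gene is set against another gene's, since probe sets differ in brightness.

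Sult1c2, a family 1 enzyme, varied within the continuous group more than any other member. It gave 4.85, 5.30 and 5.07 on withdrawal arrays, against 6.29, 5.43 and 5.08 on continuous arrays. Continuous replicates 1 and 2 lay above the withdrawal arrays and replicate 3 lay among them, so the groups overlapped. The log2 difference of -0.53 (SE 0.27, adjusted p = 0.283) was as large as that of Sult1a1, with a wider spread. It was -0.18 without continuous replicate 1.

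The PAPS synthases did not pass the test. Papss1, which is widely expressed, gave 7.26, 7.11 and 7.14 on withdrawal arrays and 6.94, 7.01 and 6.62 on continuous arrays. The groups did not overlap, with 0.10 between them (log2 difference 0.31, SE 0.16, 95% interval -0.04 to 0.66, limma adjusted p = 0.262). Papss2, the main form of liver, gave 9.88, 9.80 and 9.53 on withdrawal arrays and 10.21, 9.41 and 9.84 on continuous arrays, with the continuous arrays on both sides of the withdrawal ones. Its log2 difference was -0.08 (SE 0.21, 95% interval -0.55 to 0.38, adjusted p = 0.844).

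**Figure D2:**
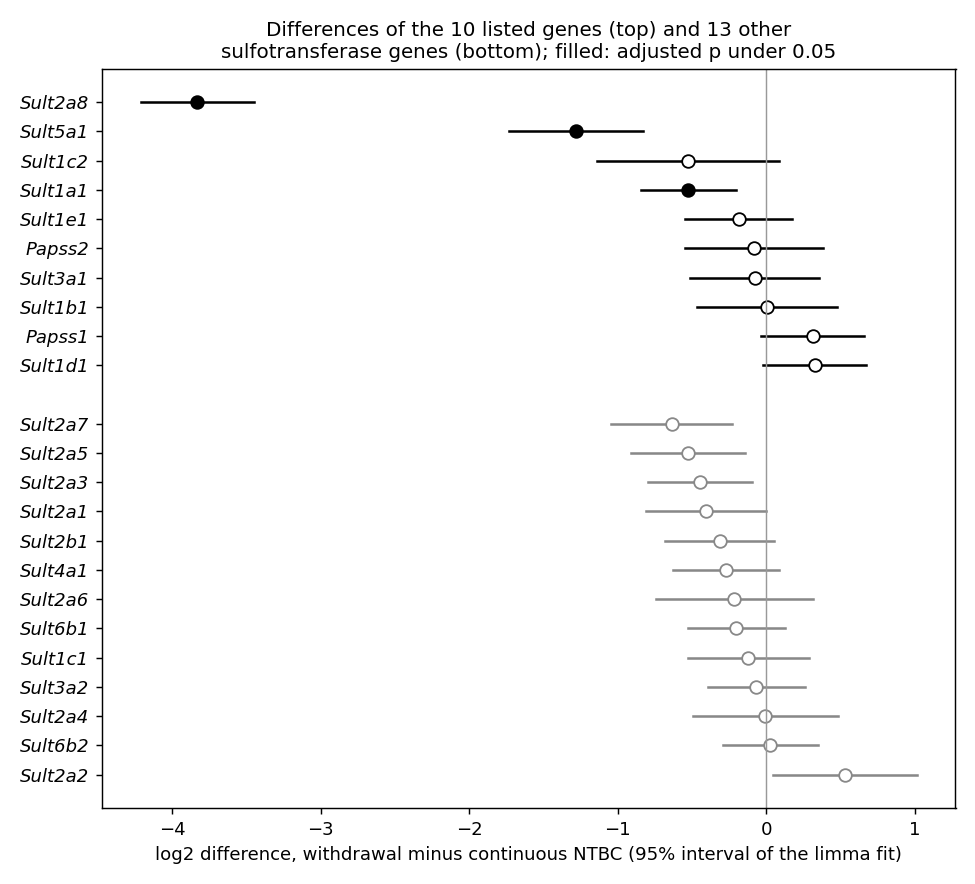
Log2 difference, withdrawal minus continuous NTBC (horizontal axis), with the 95% interval of the limma fit, for the 10 listed genes (black, top) and 13 other sulfotransferase genes (grey, bottom), where filled points have an adjusted p under 0.05. Sult2a8 stands at -3.83 and Sult5a1 at -1.28, while no point of the lower block is filled.

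The remaining cytosolic sulfotransferases of the array, 13 of 13 measured, gave 0 calls in either direction by limma's adjusted p. Among all probe sets 6.21% were called higher and 3.20% lower. At an unadjusted p of 0.05, 1 of the 13 was higher and 4 were lower. No share of all probe sets was taken at that threshold, so nothing is read from these counts. The median log2 difference of the 13 was -0.21, and 6 of them lay under the lower quartile on all arrays. Sult2a8 lies between Sult2a6 and Sult2a7 in a cluster of family 2a genes on chromosome 7, and both of these neighbours were under the lower quartile on every array. Sult2a7 gave 2.39, 1.84 and 2.43 on withdrawal arrays, against 2.93, 2.91 and 2.73 on continuous arrays (log2 difference -0.64, SE 0.18, adjusted p = 0.0591). Sult2a5 (-0.53, adjusted p = 0.0896) and Sult2a3 (-0.45, adjusted p = 0.112) were the next by p-value, and Sult2a2 had a difference of 0.53 (adjusted p = 0.172). The log2 differences of Sult1c1, Sult2a1, Sult2a4, Sult2a6, Sult2b1, Sult3a2, Sult4a1, Sult6b1 and Sult6b2 lay between -0.40 for Sult2a1 and 0.03 for Sult6b2. Family 2a genes are closely related in sequence and their transcripts can bind shared probes. The values of single members, Sult2a8 among them, are therefore uncertain. Probe sequences were not used here.

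Genes that supply sulfate or handle PAPS and its product went both ways. Of 15 measured, 3 rose and 4 fell (6.21% and 3.20% of all probe sets), with a median log2 difference of -0.10. Slc26a1, the sulfate transporter of the hepatocyte's basolateral membrane, fell 2.10-fold, with 8.89, 9.08 and 8.66 on withdrawal arrays and 10.15, 9.75 and 9.95 on continuous arrays (adjusted p = 0.00344). Suox, sulfite oxidase, which forms sulfate, fell as well, with 7.61 ± 0.33 on withdrawal arrays and 8.61 ± 0.12 on continuous arrays (SD, n = 3 each, limma adjusted p = 0.0078). Cdo1, cysteine dioxygenase, which starts the oxidation of cysteine sulfur, fell by 0.56 (adjusted p = 0.0409), and Tst, a thiosulfate sulfurtransferase, fell by 0.62 (adjusted p = 0.0328).

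Of the genes that rose, 2 belong to mitochondrial sulfide oxidation, while Suox and Tst of the same list fell, as given above. Sqor, sulfide quinone oxidoreductase (Sqrdl in older annotation), had 9.54 ± 0.18 on withdrawal arrays and 8.59 ± 0.21 on continuous arrays (SD, n = 3 each, 1.94-fold, limma adjusted p = 0.00599). Ethe1, the persulfide dioxygenase, rose 1.64-fold (adjusted p = 0.015). Bpnt1, a phosphatase that removes the PAP left over from sulfonation, rose 1.54-fold, with 8.84, 8.96 and 8.66 on withdrawal arrays and 8.40, 8.09 and 8.10 on continuous arrays (adjusted p = 0.0349). The calls of Slc26a1, Suox and Sqor held without any 1 array. The others were lost in part. The highest adjusted p was 0.142 for Bpnt1, 0.0782 for Ethe1 and 0.196 for Cdo1, each without withdrawal replicate 1, and 0.099 for Tst without continuous replicate 2. Bpnt1 was also lost without withdrawal replicate 2 (0.142) and continuous replicates 2 (0.109) and 3 (0.101), and Ethe1 without withdrawal replicate 3 (0.0513) and continuous replicate 2 (0.0552). Tst was lost in every case except that without continuous replicate 3, and Cdo1 in every case. Quantile normalization ended the call of Bpnt1 (0.0552), and median centring those of Tst (0.114) and Cdo1 (0.139).

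**Figure D3:**
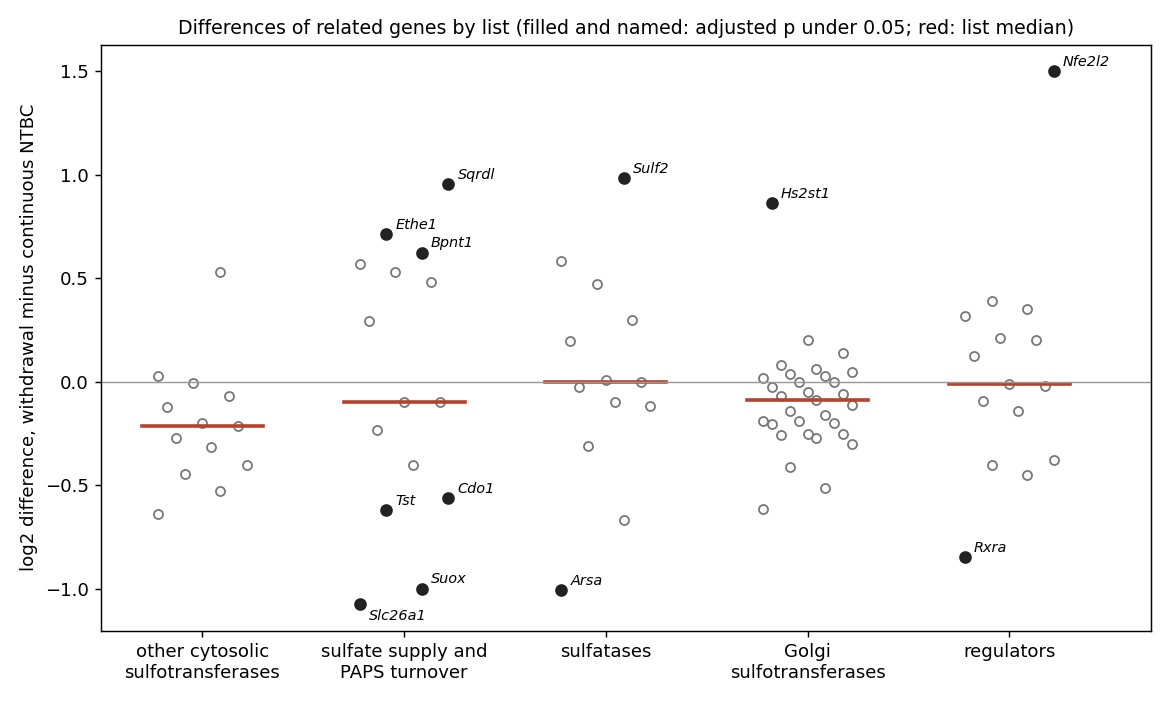
Log2 difference, withdrawal minus continuous NTBC (vertical axis), of each measured gene in 5 lists of related genes, with a red line at each list's median and filled, named points for an adjusted p under 0.05. The 7 named genes of sulfate supply and PAPS turnover lie on both sides of 0, from -1.07 for Slc26a1 to 0.95 for Sqor (plotted as Sqrdl).

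Genes of enzymes that remove sulfate, or place it elsewhere in the cell, gave 2 calls higher and 1 lower. Of 13 measured sulfatase genes, 1 rose and 1 fell (6.21% and 3.20% of all probe sets), with a median log2 difference of -0.003. Sulf2, which trims heparan sulfate outside the cell, rose 1.98-fold (7.23, 7.56 and 7.25 on withdrawal arrays, 6.06, 6.46 and 6.57 on continuous arrays, adjusted p = 0.00715). Arsa, the lysosomal arylsulfatase that degrades sulfatide, fell 2.01-fold (6.23 ± 0.19 on withdrawal arrays, 7.23 ± 0.30 on continuous arrays, SD, n = 3 each, limma adjusted p = 0.00762). Arsg did not pass (-0.67, adjusted p = 0.0605). Of 31 measured Golgi sulfotransferases, which modify proteins and glycans, 1 rose and 0 fell by limma's adjusted p (6.21% and 3.20% of all probe sets). Their median log2 difference was -0.09. At an unadjusted p of 0.05 the counts were 1 and 3, for which no share of all probe sets was taken. The one that rose was Hs2st1, a heparan sulfate sulfotransferase (1.82-fold, adjusted p = 0.0212), whose call was lost without withdrawal replicate 1 (0.105) or 2 (0.0943) or continuous replicate 2 (0.062) or 3 (0.0697). Chst4 (-0.61, adjusted p = 0.0583) and Hs3st1 (-0.51, adjusted p = 0.0793) did not pass.

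Of 15 measured transcription factors listed as possible regulators of sulfotransferase genes, 1 rose and 1 fell (6.21% and 3.20% of all probe sets), with a median log2 difference of -0.01. Nfe2l2, which encodes NRF2, rose 2.83-fold, with 10.36, 10.22 and 10.01 on withdrawal arrays and 8.57, 8.73 and 8.79 on continuous arrays (limma adjusted p = 0.000268). Rxra, the partner of many nuclear receptors in liver, fell 1.80-fold, with 9.12, 9.08 and 8.88 on withdrawal arrays and 10.09, 9.90 and 9.63 on continuous arrays (adjusted p = 0.01). Nr3c1, the glucocorticoid receptor, did not pass (-0.40, adjusted p = 0.153). The part of these factors in the signals of the sulfotransferase genes was not tested.

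The genes whose signals over the 6 arrays were most like those of Sult2a8 were Upp2, Cyp2c50 and Lrg1. Likeness was the root mean square difference of log2 signals, each gene centred on its own mean, over 19392 other genes. It was 0.22 for Upp2, a uridine phosphorylase, with 6.04, 6.21 and 6.01 on withdrawal arrays and 10.09, 9.77 and 10.07 on continuous arrays. It was 0.222 for Cyp2c50, a cytochrome P450, with 7.15, 7.32 and 7.56 on withdrawal arrays and 11.21, 11.52 and 10.59 on continuous arrays. For Lrg1, an acute phase glycoprotein, it was 0.289. The 3 genes closest to Sult1d1, the member with the highest log2 difference, were Abcb9 (0.0438), Fam241a (0.0492) and Cfap47 (0.052), and like Sult1d1 itself they differed by under 0.4 between the group means. Cfap47 lay under the lower quartile of all probe sets on every array, with log2 signals from 3.09 to 3.86. These likenesses are descriptions of 6 arrays in 2 groups and say nothing of shared function.

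**Figure D4:**
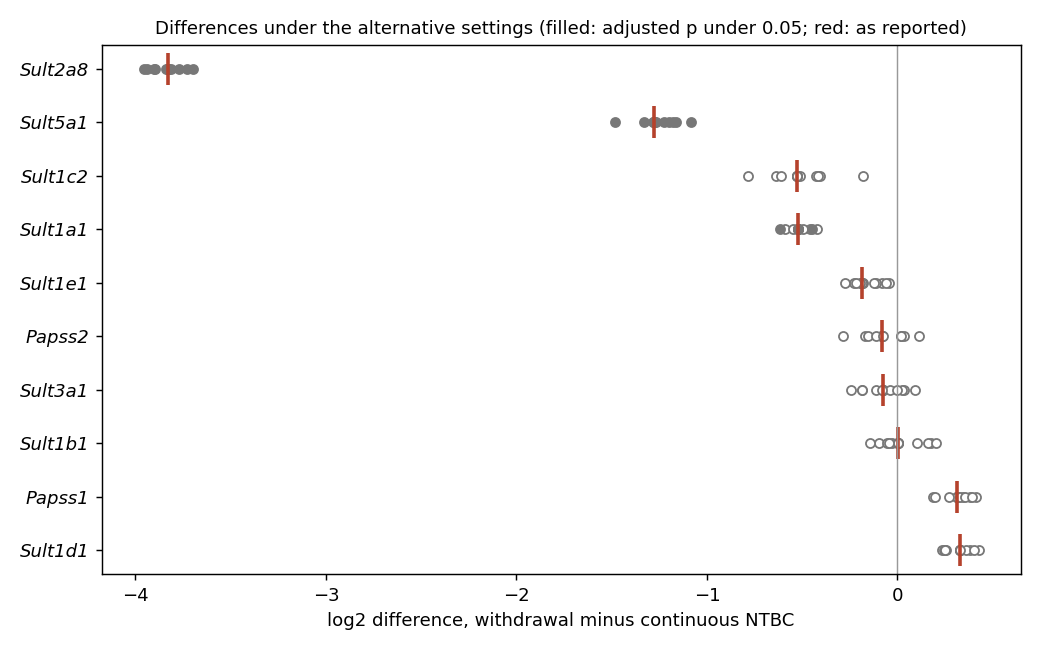
Log2 difference, withdrawal minus continuous NTBC (horizontal axis), of each listed gene as reported (red mark) and under the alternative settings other than the fold minimum (points, filled where the adjusted p was under 0.05). The points of Sult2a8 run from -3.96 to -3.70 and those of Sult5a1 from -1.48 to -1.08, all filled, while those of Sult1a1 are filled in part.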

How the data were processed

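Liver RNA of 6 samples was measured on Affymetrix whole-transcript arrays. The deposited table holds normalized intensity values on a linear scale, made with Transcriptome Analysis Console per the submitters' processing notes. The program's version and how it corrected background and normalized are not given in the sources used here, and detection flags were not used here. Intensities ran from 3.58 to 22226.61. They were turned to log2 and not normalized again.

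Probe sets were named from the platform annotation (23521 with 1 symbol, 1814 with several, 9137 with none here), and 23328 symbols matched RefSeq by identifier. Per gene the probe set with the highest mean was used. The model was run in R 4.3.3 with limma 3.58.1 over the 34472 probe sets (lmFit, eBayes, 4 residual and 10.2 total degrees of freedom, withdrawal minus continuous, two-sided). P-values were adjusted by Benjamini-Hochberg over all probe sets, with a threshold of 0.05 and no filter. The fit was tested on simulated data. The number of arrays limits the precision.

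The members and lists were chosen with earlier results of these data known. Of 97 related genes in 5 lists, 87 had a probe set naming that gene alone. Named were all members, every gene of the other sulfotransferase list, the 3 smallest p-values of each other list, and all called genes where 5 or fewer passed in a direction. Likeness was taken for the members with the highest and lowest log2 difference, leaving out predicted genes. Motifs were chosen after the values were seen. Alternatives were quantile normalization, median centring, leaving out or raising dim signals (lower quartile of the array), the replicate number as a block, array weights, trend and robust eBayes, probe sets with 1 symbol, averaging the probe sets of each gene, a 2-fold minimum, and leaving out each array.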

Additional observations from a re-analysis of the deposited data

How the results depend on the processing

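Of the members, Sult2a8 and Sult5a1 kept their direction and call under the 16 alternatives. Several of these, such as the replicate block, left their log2 differences unchanged and could alter the call alone. The lower count of 3 members became 2 with median centring, with the replicate block, with a 2-fold minimum and without any 1 array, through Sult1a1 each time, and 0 members were called higher throughout. The groups share replicate numbers, but deviations of same-numbered arrays correlated at 0.16, -0.125 and 0.217, and 3 of 6 arrays correlated best with their own number, so the numbers were not taken as pairs. With the replicate block Sult1a1 had adjusted p = 0.0659 and Cdo1 0.0655. The block changed no other call among the members and the 12 related genes that were called. Differences near 0 changed sign: Sult1b1 was -0.029 and Sult3a1 0.032 with quantile normalization, Sult3a1 0.023 and Papss2 0.017 with median centring, and Papss2 0.034 with array weights. With 1 array left out Sult1b1 ran from -0.15 to 0.20, Sult3a1 from -0.24 to 0.091 and Papss2 from -0.29 to 0.11. The related genes, 6 higher and 6 lower as reported, were 10 and 10 with array weights and 1 and 2 with a 2-fold minimum. With 1 array left out the higher count ran from 3 (without withdrawal replicate 1 or continuous replicate 2) to 9 (without continuous replicate 1). The lower count ran from 4 to 6. Calls over all 34472 probe sets, both directions together, moved as well, from 3241 as reported. They were 1454 without withdrawal replicate 1, 2078 without continuous replicate 2 and 4210 without continuous replicate 1. No count over all probe sets was taken with array weights or the 2-fold minimum. The cause of these shifts was not tested. A dim signal without a background level limits what can be said of Sult1e1 and Sult3a1.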

Other observations

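Within the continuous group, replicate 1 gave the highest signal for 6 of the 10 members, against 33.1% of all probe sets. Within the withdrawal group, replicate 1 was highest for 5 of 10, against 28.6% of all probe sets. The 5 members highest on withdrawal replicate 1 were Sult1a1, Sult1b1, Sult5a1, Papss1 and Papss2, and of these all but Papss1 were also highest on continuous replicate 1.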
